A study of Mus musculus with 12 samples.

Results

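The data compared DNA methylation at postnatal day 2 (P2) between b cells that descend from Myt1+Ngn3+ (M+N+) islet progenitors, marked by eYFP, and b cells without eYFP, which descend from Myt1-Ngn3+ (M-N+) progenitors. The 4 P2 libraries were taken by their labels from the 12 whole-genome bisulfite libraries of the series, 2 for each subtype. The other 8 came from animals at postnatal day 60 (P60). All groups were MNYI mice with the genotype Myt1cCre; Ngn3nCre; Rosa26eYFP, InsApple, in which the reconstituted Cre switches on eYFP and the fluorescent protein Apple marks insulin-producing cells. The labels name no treatment, and each library combined several sorted batches of several mice. The titles call the material sorted b cells and write eGFP for eYFP, while the cell type field names all islet cells. Methylated and unmethylated reads at each CpG were available as 1 pool per subtype, so the levels carry no replicate error, and the tests below compare 2 pools of DNA and not mice. In such a pool, a changed level in every cell cannot be told apart from a changed share of cells.

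DNA methylation adds a methyl group to cytosines that precede guanine (CpGs) and covers most CpGs of mammalian genomes. Active promoters and enhancers stand out as hypomethylated regions (HMRs), where bound transcription factors and the TET enzymes keep methylation low while the DNMT enzymes add it elsewhere. Cell type-specific HMRs mostly lie away from gene starts, and they can persist through cell divisions after the factors that formed them have gone.

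HMRs of both P2 pools were merged into 76854 autosomal regions, of which 75701 had at least 5 covered CpGs and at least 50 reads in each pool and were tested. Called regions differed by at least 10 percentage points with an adjusted p under 0.05 (Fisher's exact test on summed reads, two-sided, Benjamini-Hochberg over all tested regions). The regions with the largest differences were then ranked among those covered by 10 or more reads per CpG on average in each pool and with an HMR in both libraries of the lower subtype and in neither library of the other. The sequences of 6 leading regions, 3 in each direction, are printed because they show how few CpGs and how few bases carry such a difference. CpGs are in capitals, the strand is plus, the build is GRCm39 (mm39), and the last base completes the last CpG.
Lower in eYFP+, near Or5an9, chr19:12189956-12190019: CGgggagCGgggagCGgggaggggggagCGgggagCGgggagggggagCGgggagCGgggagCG
Lower in eYFP+, near Hs1bp3, chr12:8361086-8361226: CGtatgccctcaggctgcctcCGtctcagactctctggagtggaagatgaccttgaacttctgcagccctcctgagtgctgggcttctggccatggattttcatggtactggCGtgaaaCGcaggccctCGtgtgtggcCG
Lower in eYFP+, toward Nfe2l3, chr6:51121841-51121995: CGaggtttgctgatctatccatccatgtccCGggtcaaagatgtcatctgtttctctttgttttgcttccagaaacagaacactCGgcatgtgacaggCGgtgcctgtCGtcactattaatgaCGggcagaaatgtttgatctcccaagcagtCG
Lower in eYFP-, toward Ube3d, chr9:86118679-86118744: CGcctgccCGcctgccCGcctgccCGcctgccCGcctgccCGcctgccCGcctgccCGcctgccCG
Lower in eYFP-, near Atf7ip, chr6:136464012-136464118: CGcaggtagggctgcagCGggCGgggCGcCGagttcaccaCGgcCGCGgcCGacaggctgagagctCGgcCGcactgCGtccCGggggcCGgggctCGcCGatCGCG
Lower in eYFP-, Pcdh15 intron, chr10:73139800-73140037: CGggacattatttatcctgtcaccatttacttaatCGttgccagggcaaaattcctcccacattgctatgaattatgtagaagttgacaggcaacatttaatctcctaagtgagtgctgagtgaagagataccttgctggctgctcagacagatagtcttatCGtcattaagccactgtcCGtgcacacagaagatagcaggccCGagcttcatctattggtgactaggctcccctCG
The printed stretches span 64 to 238 bases. The Or5an9 and Ube3d stretches are tandem repeats of short G- and C-rich units, whereas the Hs1bp3, Nfe2l3 and Pcdh15 stretches hold 6 or 7 CpGs in sequence without such repeats, and the Atf7ip stretch holds 18 CpGs in 107 bases.

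Single CpGs described how a difference ran through a region. The regions were chosen for large differences in these same reads, and neighbouring CpGs share reads. A shared direction of their CpGs is therefore largely given by the choice. In the Nfe2l3 region, all 7 CpGs were less methylated in eYFP+ cells. Their levels lay between 10.3% and 44.4% in the eYFP- pool, with 22 to 41 reads each, and between 0% and 14.3% in the eYFP+ pool, with 14 to 28 reads each. The region lies 288 kb from the start of Nfe2l3, which encodes a basic leucine zipper transcription factor. In the Pcdh15 intron, all 6 CpGs were less methylated in eYFP- cells, with levels of 3.45% to 30.4% there against 31.8% to 56.5% in eYFP+ cells. Pcdh15 encodes a protocadherin known from the hair cells of the inner ear. The order held at all 18 CpGs of the Atf7ip region too, although the ranges of the pools overlapped there, at 17.6% to 46.2% in eYFP- and 35.3% to 69.6% in eYFP+ cells. It held at 9 of 10 CpGs of a region near Krtap5-20, lower in eYFP+ cells, and at 8 of 9 CpGs of the Ube3d region. The remaining CpG of each had the same level in both pools.

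Over all tested HMRs the pools were close. The median level was 10.4% in eYFP- and 10.9% in eYFP+ cells, the median difference (eYFP+ minus eYFP-) was 0.14 points, and the median absolute difference was 1.93 points. Of the tested HMRs, 364 (0.481%) were called lower in eYFP+ cells and 636 (0.84%) lower in eYFP- cells, so 63.6% of the 1000 called regions (1.32% of those tested) were less methylated in eYFP- cells. All 19 autosomes had more regions called lower in eYFP- than in eYFP+ cells. Called regions lower in eYFP+ cells had a median of 17.4% there and 32.6% in eYFP- cells. Those lower in eYFP- cells had a median of 12.7% there and 27.7% in eYFP+ cells.

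**Figure D1:**
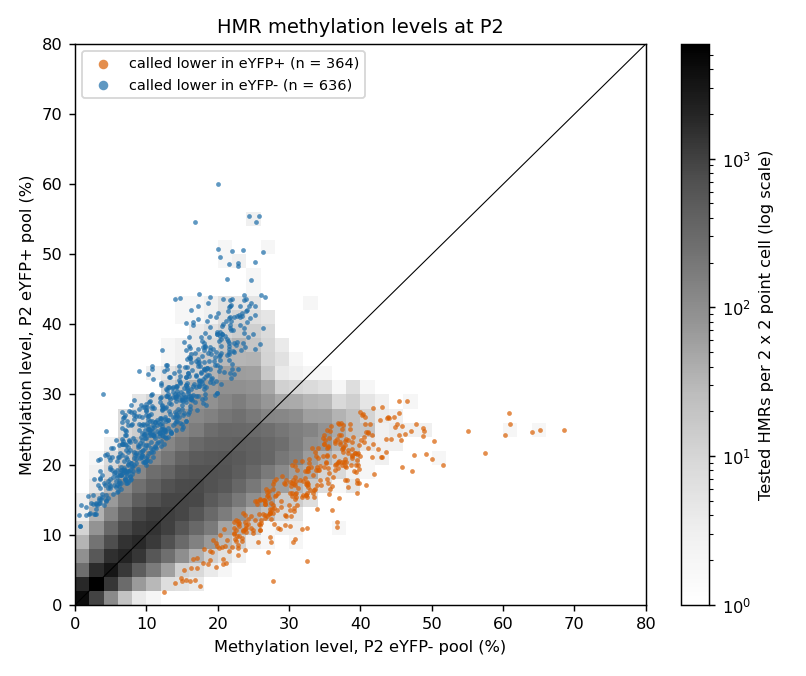
Methylation level (%) of each tested P2 HMR in the eYFP- pool (x axis) and in the eYFP+ pool (y axis). Grey cells count all 75701 tested HMRs on a log scale, the 364 orange points were called lower in eYFP+ and the 636 blue points lower in eYFP- cells, and most HMRs lie at low levels near the diagonal.

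The test counts every CpG read as independent, whereas CpGs of 1 fragment share reads. When CpGs within 300 bp of a CpG already kept were left out, 45391 regions could be tested with a median of 84 reads in place of 273, and only 1 region was called lower in eYFP+ and 0 lower in eYFP- cells by Fisher's exact test. With these CpGs, 2731 regions (6.02%) had an unadjusted p under 0.05, against 11405 (15.1%) with all CpGs. Reads, regions and the dependence of reads change together here, and their parts in the loss of calls were not tested apart. The kept CpGs of called regions are part of what chose them, and they moved in the called direction in 330 of 364 and 603 of 636 regions.

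Whether a region was an HMR in 1 pool or in both set much of the direction. Of the 364 regions lower in eYFP+ cells, 254 were an HMR in the eYFP+ pool only, and of the 636 lower in eYFP- cells, 370 were an HMR in the eYFP- pool only, where the choice of region fixes the sign. The other 376 called regions were HMRs in both pools. They divided into 110 lower in eYFP+ and 266 lower in eYFP- cells, which is 0.172% and 0.416% of the 63995 tested HMRs held by both pools. At the size threshold, a region on chromosome 9 (115237163 to 115237486) with 16.6% in eYFP- and 6.55% in eYFP+ cells was just inside, and a region on chromosome 17 (35100731 to 35101273) with 20.8% and 10.8% was just outside.

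Single libraries gave HMR positions without reads. They held 58342 and 56446 autosomal HMRs in eYFP- cells (replicates 1 and 2) and 59870 and 55619 in eYFP+ cells. The libraries of each subtype overlapped in this count, with means of 57394 ± 1341 (SD, n = 2) and 57744.5 ± 3006 (SD, n = 2), and an exact permutation test, which cannot go below p = 0.33 here, gave p = 1 (two-sided). Libraries of 1 subtype shared 82.9% (eYFP-) and 82.8% (eYFP+) of the tested HMRs found in either, and libraries of different subtypes shared 81.7% to 83.0%. Of the called regions, 103 of the 364 lower in eYFP+ cells (28.3%) had an HMR in both eYFP+ and in neither eYFP- library, a pattern that 1.59% of all tested regions showed. For those lower in eYFP- cells the reverse pattern was found in 150 of 636 (23.6%), against 1.24% of all tested regions. The reads behind these library HMRs are part of the pools, so the shares describe how a call was divided between libraries and are not a second measurement. Another 48 and 104 called regions had an HMR in no library.

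The X chromosome gave a check of the sex labels, which name replicate 1 of both subtypes female and replicate 2 male. Of 254 X regions that were HMRs in all P60 libraries labelled male and in none labelled female, eYFP+ replicates 1 and 2 held 12.99% and 84.3%, as their labels read. The eYFP- libraries went against their labels, with 92.5% in replicate 1 and 13.4% in replicate 2. Each pool thus held 1 library of each X type, and the results given here are for autosomes.

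The differences lay in short regions away from gene starts. HMRs within 1 kb of a protein-coding start were called least often. Among those rich in CpGs (observed over expected at least 0.6), 13 of 8576 (0.152%) were lower in eYFP+ and 13 (0.152%) in eYFP- cells, and among those poor in CpGs 13 (0.169%) and 16 (0.208%) of 7677. Intronic HMRs, the largest class with 26651 regions, gave 141 (0.529%) and 293 (1.10%) calls. Exonic HMRs gave 12 (0.821%) and 34 (2.33%) of 1461, and those in 3' UTRs 11 (0.686%) and 20 (1.25%) of 1603. Intergenic HMRs gave 126 (0.621%) and 163 (0.804%) of 20278 within 100 kb of a start and 48 (0.508%) and 97 (1.03%) of 9455 beyond it.

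Length went with these classes. HMRs under 200 bp were called in 93 (1.51%) and 160 (2.59%) of 6170, those from 1 kb to under 5 kb in 11 and 12 of 18858, and none of 481 HMRs of 5 kb or more was called in either direction. Longer HMRs had lower levels (median 3.92% in eYFP- cells from 1 kb to under 5 kb against 14.7% under 200 bp). Among HMRs from 200 to under 500 bp alone, the share called was 2.99% (4 of 134) and 1.55% (18 of 1162) for CpG-rich and CpG-poor starts, 3.64% (20 of 549) in exons, 2.47% (18 of 730) in 3' UTRs, 1.89% (234 of 12398) in introns and 1.63% (143 of 8783) and 1.89% (78 of 4137) in the intergenic classes. At this length the share at gene starts rested on few regions and was not below that of every other class.

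**Figure D2:**
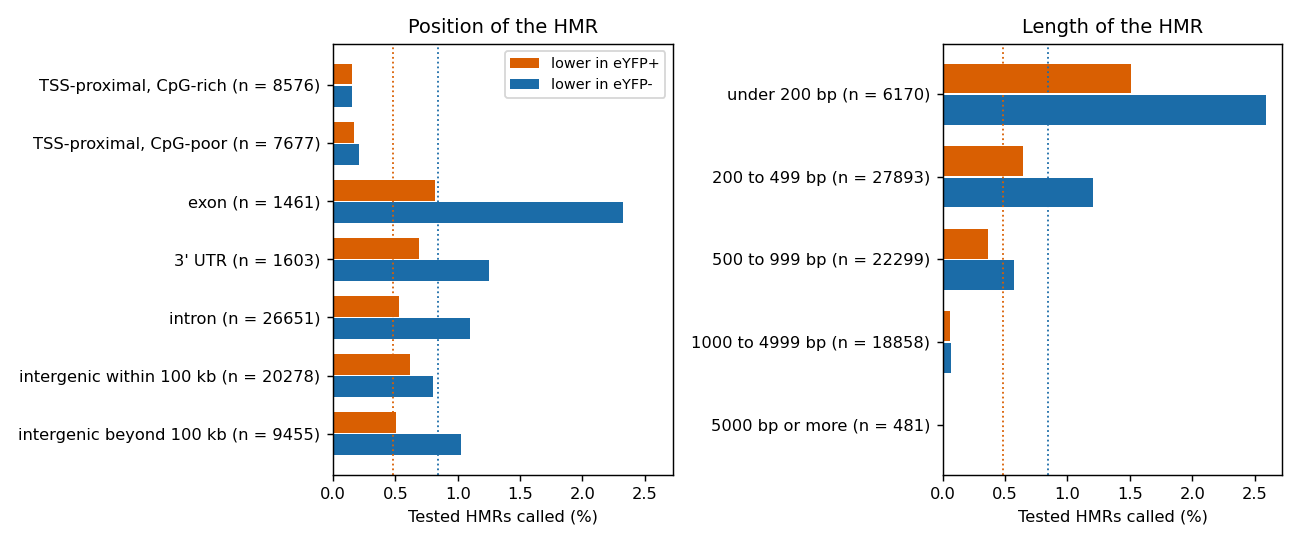
Percentage of tested P2 HMRs called lower in eYFP+ (orange) or in eYFP- cells (blue), by position (left) and by length (right), with n tested. Dotted lines mark 0.481% and 0.84%, the shares over all tested HMRs, and HMRs under 200 bp reach 1.51% and 2.59%.

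Regions made of short repeats were called more often than others. In 253 tested HMRs at least 50% of the region lay in 12-base words that occur more than once in it, and 26 of them (10.3%) were called. The other 75448 HMRs gave 974 calls (1.29%). The repeated HMRs were also shorter (median 137 bp against 553 bp) and had higher levels (median 21.1% against 10.3% in eYFP- cells). The parts of length, level and repeats in the share called were not tested apart. How reads of tandem repeats were placed was not tested.

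The profile around called regions showed a difference limited to the dip itself. In regions lower in eYFP+ cells, the bin centred 50 bp upstream of the centre stood at 35.1% in eYFP- and 20.03% in eYFP+ cells, and the bin 550 bp downstream at 66.2% and 65.7%. In regions lower in eYFP- cells the same bins stood at 15.7% and 29.95%, and at 70.5% and 71.4%. The HMRs that both pools held also differed in width where they were called. All 62975 pairs of single HMRs had medians of 560 bp in eYFP- and 580 bp in eYFP+ cells, and 49.1% had the same width. Of these pairs, 13028 were wider in eYFP- and 19052 wider in eYFP+ cells. Among the 261 called lower in eYFP- cells, 182 were wider and 3 narrower in eYFP- cells, and among the 109 called lower in eYFP+ cells, 92 were wider and 0 narrower in eYFP+ cells. Width and level come from the same reads, so this describes the calls.

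**Figure D3:**
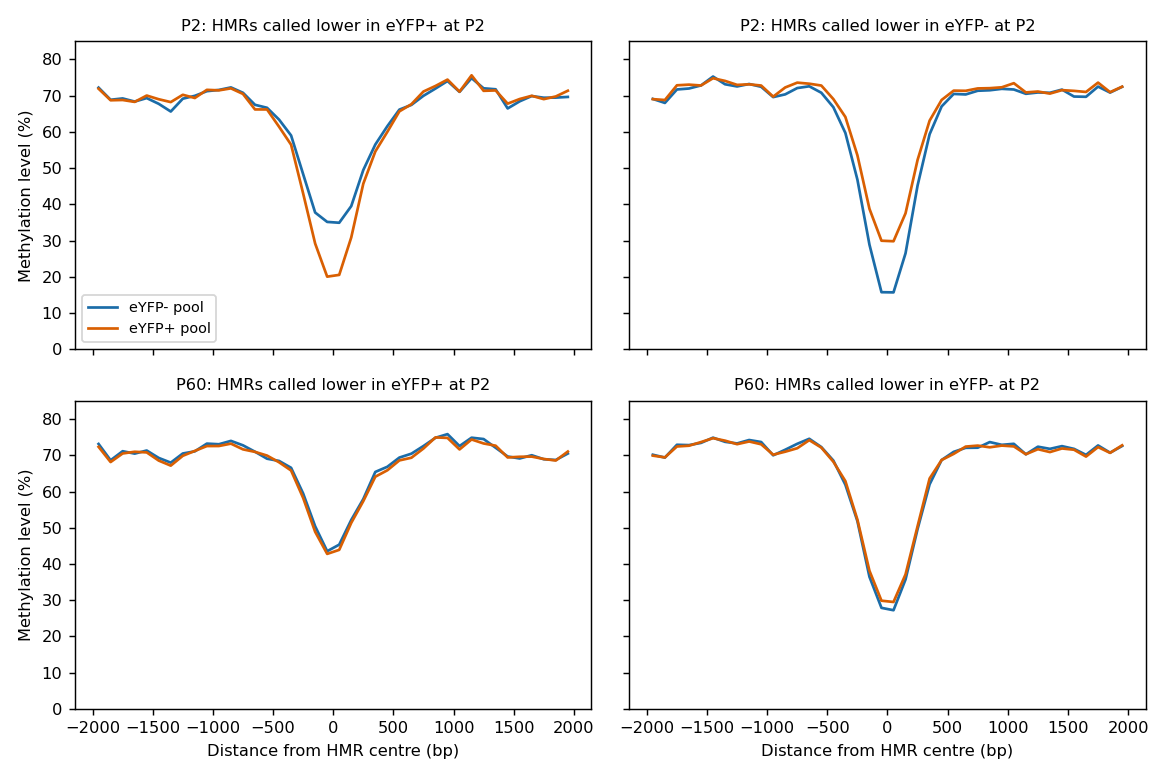
Methylation level (%) in bins of 100 bp by distance from the HMR centre (bp) for the eYFP- (blue) and eYFP+ pools (orange), at P2 (top) and P60 (bottom), over the regions called at P2. At P2 the pools part at the centre, by 35.1% against 20.03% and 15.7% against 29.95%, and at P60 the curves lie close together.

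Among the 10 leading regions lower in eYFP+ cells, 7 were intergenic, 2 lay in genes and 1 was close to a start. The Nfe2l3 region had 27.8% (95% Wilson interval 22.2 to 34.1, 216 reads) in eYFP- and 3.40% (1.46 to 7.71, 147 reads) in eYFP+ cells, adjusted p = 6.15e-07 by Fisher's exact test. Intervals of this kind cover counting error only and treat reads as independent, and since the 20 leading regions were chosen for large differences in the same reads, intervals that do not overlap are given by the choice. The Hs1bp3 region, 2.28 kb from the gene start, had 36.8% in eYFP- and 11.8% in eYFP+ cells. A region 1.29 kb from the start of Pccb, which encodes the beta subunit of propionyl-CoA carboxylase, had 40.8% and 17.1%. The Cpt1b region (chr15:89309770-89309873), 176 bp from a start of this carnitine palmitoyltransferase gene of fatty acid oxidation, had 39.5% and 15.9% and was the only leading region of this direction at a gene start. Among the others, a region 117 kb from Rybp, a subunit of Polycomb complexes, had 47.8% and 25.8%, and an intronic region of Ksr2, a scaffold of the MAP kinase pathway, had 33.9% and 13.7%. The remaining 4 lay near Or5an9, Krtap5-20, Tmem30a and Pkdcc and differed by 31.5, 24.1, 22.3 and 21.5 points.

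Among the 10 leading regions lower in eYFP- cells, 5 were intergenic and 4 lay in genes. The Pcdh15 intron had 14.0% (95% Wilson interval 9.34 to 20.5, 150 reads) in eYFP- and 43.6% (35.9 to 51.6, 149 reads) in eYFP+ cells, adjusted p = 2.39e-05 by Fisher's exact test. The Prkd1 intron (chr12:50580899-50581247), in the gene for protein kinase D1, had 8.90% and 33.3%. A region in the 3' UTR of Mark1, which encodes a kinase of microtubule-associated proteins, had 10.2% and 32.9%. The Anks1 region, 51 bp from a gene start, had 18.98% and 41.2%, and the exonic region shared by the overlapping genes Otop2 and Ush1g had 22.02% and 43.7%. The Atf7ip region, 19.1 kb from the start of a gene whose product works with the histone methyltransferase SETDB1, had 25.8% and 55.5%. The remaining 4 lay near or toward Ube3d, Cdh26, Rbfox1 and Hrh1 and differed by 37.7, 26.9, 22.2 and 21.7 points. The Or5an9, Ube3d and Rbfox1 regions were the 3 of the 20 with repeated sequence. Keeping only CpGs more than 300 bp apart leaves just the first covered CpG in regions shorter than this. There the value describes that CpG and is no check of the region. With this setting, 10 of the 20 differences moved beyond their error. They became smaller at Or5an9 (-11.1 points), Krtap5-20 (0), Cpt1b (-5.04), Atf7ip (15.3), Pcdh15 (6.21) and Anks1 (5.07) and larger at Hs1bp3 (-41.1), Rybp (-38.3), Pkdcc (-40.9) and Ksr2 (-40.9), and the Ush1g difference turned to -1.32.

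**Figure D4:**
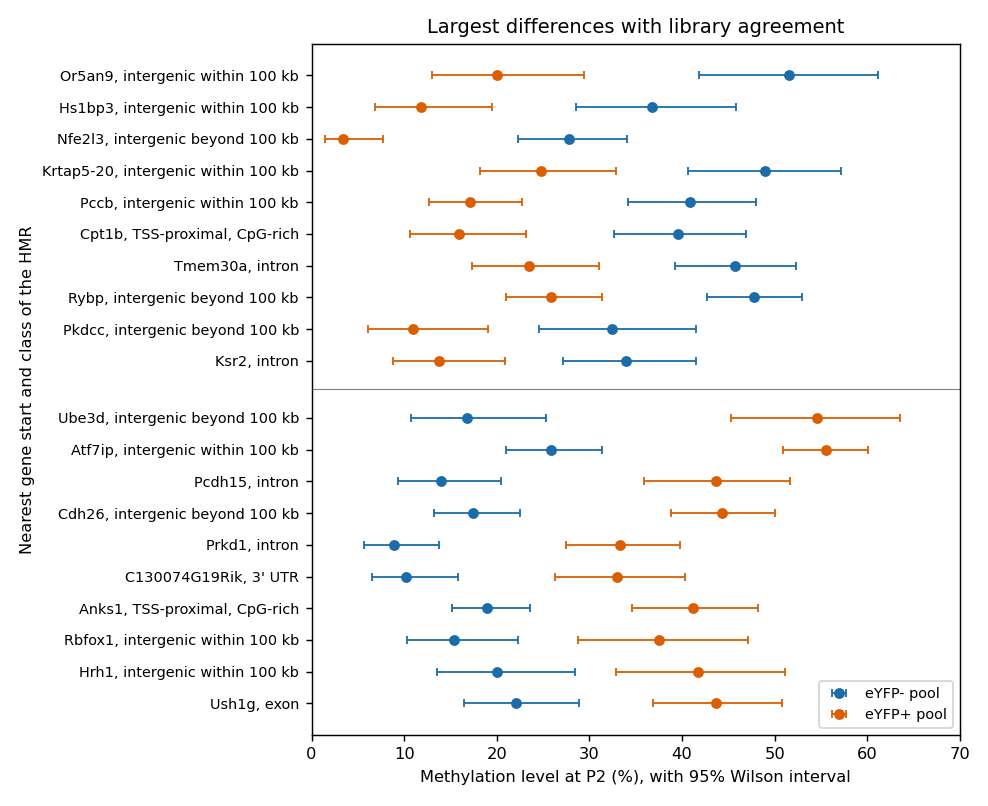
Methylation level (%) at P2 with 95% Wilson intervals of the 10 leading HMRs lower in eYFP+ (above the line) and the 10 lower in eYFP- cells (below it), for the eYFP- (blue) and eYFP+ pool (orange), by nearest gene start and class. The intervals cover counting error only and do not overlap, as the choice of regions from the same reads makes likely.

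To ask which gene loci carried the differences, HMRs were linked to a protein-coding gene when they overlapped the stretch from 5 kb upstream of its start to its end. The 48099 linked HMRs belonged to 16291 genes and held 591 called regions, 201 (0.418%) lower in eYFP+ and 390 (0.811%) lower in eYFP- cells. At least 1 called HMR was found in 573 genes (3.52%), with regions of both directions in 19 of them. Most of these genes had a single called HMR. Slit3, which encodes a guidance ligand, had 3 of 25 HMRs lower in eYFP+ cells, by 12.9, 15.8 and 19.3 points, and Tanc1, a scaffold gene, had 3 of 15 lower in eYFP- cells, by 14.1 to 17.7 points. Only the Slit3 region of 15.8 points was an HMR in any single library, namely in both eYFP+ libraries, and 1 Tanc1 region had library agreement. A further 10 genes had 2 regions lower in eYFP+ cells, Atp9a, Man1c1 and Ptpn14 among them, and 22 genes had 2 lower in eYFP- cells, Grip1, Kcnq3, Med27, Cacna1d and Fgfr2 among them, and these ties give no order. Counting both directions, 5 genes had 3 called HMRs. Genes with many HMRs had more chances to be counted here.

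Gnas, which encodes the stimulatory G protein alpha subunit and imprinted transcripts, had most calls, with 3 of 16 HMRs lower in eYFP+ and 2 lower in eYFP- cells. Over 439 bp at a start within the gene the direction turned from one short region to the next. At chr2:174170384-174170443 the levels were 26.4% in eYFP- and 50.3% in eYFP+ cells, at chr2:174170528-174170549 they were 60.2% and 24.2%, and at chr2:174170698-174170822 they were 24.4% and 55.5%. Over the whole stretch of 50 CpGs, eYFP- cells had 36.2% (95% Wilson interval 33.5 to 39.0) and eYFP+ cells 51.3% (48.1 to 54.5), and at P60 they had 43.6% and 49.3%. Only eYFP- replicate 1 had an HMR in the regions lower in eYFP- cells, and no library had one in the region between them.

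This led to a list of 24 imprinted genes that was chosen after the values were seen. At the control regions of imprinted loci 1 parental allele is methylated, so that levels near the middle of the scale are usual there. The part of such levels in the calls below was not tested. The 139 HMRs linked to this list held 14 called regions (10.1%), against 1.23% of all linked HMRs, 8 lower in eYFP+ and 6 lower in eYFP- cells. Gnas, which prompted the list, gave 5 of them, and without it 9 of 123 HMRs (7.32%) were called, so the share is a description and no separate evidence. Of the 14, 12 were under 200 bp, 9 had an HMR in at most 1 library, and 1 agreed between libraries. The Slc38a4 start had 64.1% in eYFP- and 24.6% in eYFP+ cells, and the Inpp5f start 57.5% and 21.7%. Igf2r had an intronic region at 61.0% and 25.8% and a region at its start at 26.1% and 44.2%, in opposite directions. Cdkn1c, an inhibitor of cyclin-dependent kinases, had 32.6% and 17.3% at its start, and Grb10, an adaptor that restrains insulin signalling, had 18.9% and 39.6%. At P60, 9 of the 14 had the same sign and 5 the opposite one, among them Slc38a4 at 45.7% and 56.5% and Inpp5f at 52.2% and 62.4%.

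Lists of b-cell genes held called regions at shares near the 1.23% of all linked HMRs, which for lists of this size is a matter of 1 or 2 regions. Among 236 HMRs of 35 islet transcription factor genes (0.847% called), only Bach2 was called, with an intronic region lower in eYFP- cells (18.9% against 36.8%) and another lower in eYFP+ cells (31.0% in eYFP- against 19.3%). The former was an HMR in no single library, and the latter in both eYFP+ libraries alone. Hormone and granule protein genes had 1 call in 137 HMRs (0.73%), in an intron of Ptprn2, which encodes a membrane protein of secretory granules, at 17.3% in eYFP- and 34.7% in eYFP+ cells. Both libraries of eYFP- cells and neither of eYFP+ cells had an HMR there, and at P60 the levels were 29.0% and 28.7%. No called region was found among 62 HMRs of disallowed genes, which mature b cells keep off, or among 94 HMRs of cell death and ER stress genes.

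Ion channel and secretion genes gave calls in both directions. Calcium channel and calcium store genes had 11 called regions in 302 HMRs (3.64%), against 1.23% of all linked HMRs, 5 lower in eYFP+ and 6 lower in eYFP- cells. Cacna1a, the P/Q-type channel gene, had an exonic region at 27.3% in eYFP- and 9.66% in eYFP+ cells that was an HMR in no single library, and at P60 32.3% and 38.3%, in the opposite order. Cacna1b, the N-type channel gene, had 38.2% and 23.5% in an exon, with an HMR in both eYFP+ libraries alone. Cacna1d, an L-type channel gene, had 3 called regions, 2 lower in eYFP- and 1 lower in eYFP+ cells. Itpr1 and Itpr2, which encode receptors for inositol trisphosphate on calcium stores, moved apart, at 20.7% and 6.47% for Itpr1 and 18.0% and 30.8% for Itpr2 (eYFP- first), both with library agreement. Potassium channel genes had 2 calls in each direction in 296 HMRs (1.35%), with the largest difference of 24.7 points in an intron of Kcnq3 (15.5% against 40.2%). Neither called Kcnq3 region was an HMR in any single library. Exocytosis genes had 3 regions lower in eYFP+ (Syt6, Cadps and Nsf) and 2 lower in eYFP- cells (Rph3al among them) in 314 HMRs (1.59%), and none of the 5 agreed between libraries.

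Among cell cycle genes, 4 of 86 HMRs (4.65%) were called, against 1.23% of all linked HMRs, and 3 of 71 with links to canonical transcripts alone. The 3' UTR region of E2f7, a repressor of cell cycle genes, had 20.3% in eYFP- and 38.9% in eYFP+ cells, with library agreement, and at P60 16.5% and 29.5%. A region counted for both Anapc7 and Atp2a2 had 15.8% and 30.3%, with library agreement. It lies in an exon of Atp2a2, the calcium pump of the ER, and meets Anapc7, a subunit of the anaphase-promoting complex, only through long transcripts of that gene. Rb1, the retinoblastoma gene, had 8.60% and 20.2%, and Cdkn1c is given above. Of the genes for DNA methylation and its removal, only Tet1, which encodes an enzyme that oxidises methylcytosine, had a call in 91 HMRs (1.10%), at 3.70% in eYFP- and 18.5% in eYFP+ cells, and 18.2% and 19.9% at P60. Both eYFP- libraries and eYFP+ replicate 1 had an HMR there. Dnmt3a, the de novo methyltransferase gene, had 0 of 21 HMRs called, with its largest difference at 2.84% and 9.76% (adjusted p = 0.226, Fisher's exact test).

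Wnt genes had 3 calls in 338 HMRs (0.888%). Axin2, a feedback inhibitor, had 15.7% in eYFP- and 31.1% in eYFP+ cells, Wnt10a, a ligand, had 6.94% and 17.9%, and Ror2, a receptor for Wnt5a, had 32.7% and 19.03%. Axin2 and Ror2 had library agreement, and Wnt10a had an HMR in every P2 library. Genes of receptors and cAMP signalling had 7 calls in 207 HMRs (3.38%), 5 of them in Gnas. Prkar1a, a regulatory subunit of protein kinase A, had 7.82% in eYFP- and 20.2% in eYFP+ cells, and 17.3% and 28.3% at P60, in an intron of a transcript that is not the canonical one. Genes of insulin, IGF and growth factor signalling had 5 in 385 (1.30%), 3 of them at the imprinted Igf2r and Grb10. The other 2, given to Fgfr2, lie over 1 Mb beyond its canonical transcript. Clock genes had 1 call in 92 HMRs (1.09%, at Rorb with 29.4% and 11.4% and an HMR in no single library) and Golgi genes 2 in 175 (1.14%, at Trappc9 and Tmed9). The shares of the Wnt, growth factor, clock and Golgi lists were near the 1.23% of all linked HMRs. Of the 50 called regions in the lists other than the imprinted one, 36 had the same sign at P60 and 14 the opposite one. The median was 1.54 points in the called direction, and 4 reached 10 points the same way and 1 the opposite way. These 50 still include regions of Gnas, Igf2r, Grb10, Cdkn1c and Trappc9 that the imprinted list also holds. An intronic Igf2r region (57.1% in eYFP- and 45.6% in eYFP+ cells at P60) was among the 4. The 1 opposite region was chr2:174170528-174170549 in Gnas (37.9% and 52.5%). Of 11 genes taken from those the study named for differential expression, Cacna1a and Anapc7 had a called HMR, Dnmt3a is given above, and Syt7 (10 HMRs), Syt16 (18), Nek4 (1), Ccng1 (1), Bax (3), Bcl2l1 (6), Cacna2d1 (7) and Kcnk3 (3) had none. The paper reports P2 differentially methylated regions in the first intron of Syt7 and at Dnmt3a. Its rule counted differing CpGs, whereas calls here needed 10 points over a whole HMR, so the measures differ. The largest difference of Syt7, which encodes a vesicular calcium sensor, was 24.7% in eYFP- against 13.04% in eYFP+ cells in an intron (adjusted p = 0.123, Fisher's exact test). Another 8 genes of the study were looked up after values were seen. Cd9, a tetraspanin gene, had 1 of 3 HMRs called, in an intron, at 33.6% in eYFP- and 21.7% in eYFP+ cells (adjusted p = 0.026, Fisher's exact test) and without library agreement. Cd24a (1 HMR), Gpx3 (1), Rbp4 (1), Cacna1c (33), Myt1 (3), Myt1l (13) and St18 (6) had none called.

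**Figure D5:**
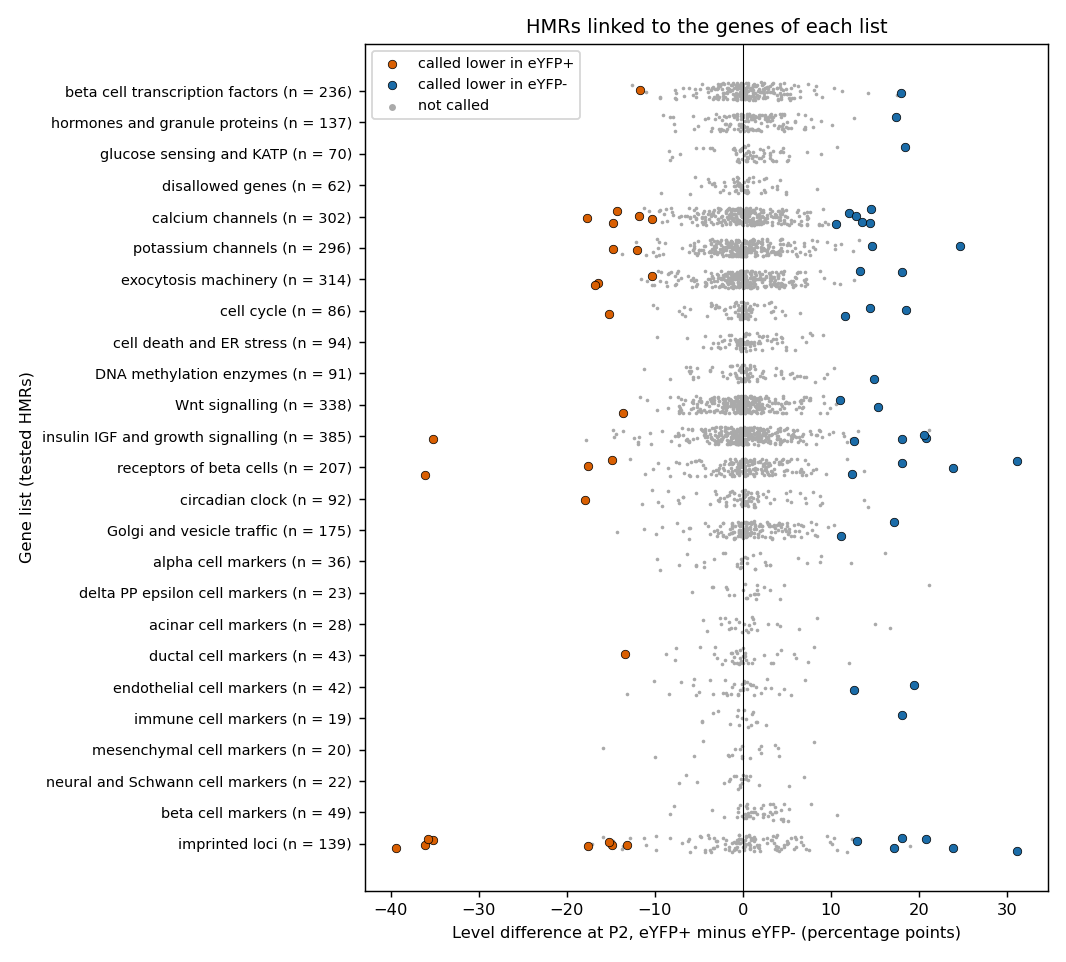
Level difference at P2 (eYFP+ minus eYFP-, percentage points) of every tested HMR linked to the genes of each list, with called regions in orange (lower in eYFP+) and blue (lower in eYFP-). The imprinted loci, a list chosen after the values were seen, hold 14 called regions of 139 and reach past 30 points on both sides.

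Genes that mark b cells had no called region, and most of their HMRs were slightly higher in eYFP+ cells. Of 49 HMRs linked to 16 such genes, 40 (81.6%) had a higher level in eYFP+ cells, and 9 a lower one, against 54.2% higher among all linked HMRs, with a median difference of 1.40 points against 0.16. Adjusted p was under 0.05 for 2 of them without reaching 10 points, a threshold that 2.39% of linked HMRs passed whatever their size (0.867% lower in eYFP+ and 1.52% lower in eYFP- cells). The HMR over Ins2 (chr7:142230966-142234249), an insulin gene, had 11.2% in eYFP- and 18.9% in eYFP+ cells (535 and 528 reads, adjusted p = 0.0287, Fisher's exact test). The HMR over the start of Slc30a8, the zinc transporter of insulin granules, had 11.6% and 16.2% (adjusted p = 0.0441, Fisher's exact test). Values that did not pass were 5.26% and 8.61% over Ins1 and 9.89% and 14.5% over Iapp, which encodes islet amyloid polypeptide. The other direction was seen in introns of Abcc8, the gene of the sulfonylurea receptor, at 16.2% and 7.97% and of G6pc2, a glucose-6-phosphatase gene, at 30.8% and 22.9%, which did not pass either. The largest difference of the list, 12.1% and 22.8% in another Abcc8 intron, had an adjusted p of 0.151 by Fisher's exact test. At P60 the same 49 HMRs had a median difference of 0.23 points, and 29 were higher in eYFP+ cells. Outside this list and chosen after its values were seen, the HMR over the start of Myt1l, a paralog of Myt1, had 8.79% in eYFP- and 13.7% in eYFP+ cells (adjusted p = 0.000273, Fisher's exact test). At P60 it had 2.50% and 2.10%. Other islet transcription factor HMRs that passed this p threshold without reaching 10 points went both ways. Those of Onecut1 (23.1% and 15.5%), Insm1 (14.3% and 10.4%) and Gata6 (4.08% and 3.00%) were lower in eYFP+ cells, and that of Mnx1 (3.96% and 5.33%) was higher. Several of the 49 HMRs share a gene, among them those of Abcc8, and are not independent.

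The windows 500 bp to either side of the canonical start gave a limited check of the labelled cell type. Those of Pdx1, Nkx6-1, Mafa and Neurod1, transcription factors of b cells, lay at 0.502% to 1.46% in both pools, and 11 of the 16 b-cell genes were under 10% in each. Above 10% lay Ins1 (28.3% in eYFP- and 35.1% in eYFP+ cells), Ins2 (12.6% and 20.6%), Ucn3 (19.3% and 23.1%), G6pc2 (15.1% and 12.7%) and Slc30a8 (11.6% and 14.7%). Also under 10% in each pool were 6 of 8 alpha, 7 of 10 ductal, 5 of 10 neural and 6 of 10 delta, PP and epsilon cell genes. So were 4 of 14 endothelial, 3 of 10 mesenchymal, 2 of 14 immune and 2 of 20 acinar genes, so a low start alone does not name the cell type. The median difference within genes (eYFP+ minus eYFP-) was -1.14 points over 20 acinar genes, with 12 lower in eYFP+ cells and a median level of 54.7% in eYFP- cells. It was -0.86 points over 14 endothelial genes, with 8 lower in eYFP+ cells and a median level of 65.0%, and 1.30 points over 14 immune genes, with 6 lower in eYFP+ cells and a median level of 73.9%. The windows of 8 alpha cell genes had medians of 0.98% and 1.20%, so they do not separate alpha from b cells. Over the 10 ductal, 10 mesenchymal, 10 neural and 10 delta, PP and epsilon cell genes the median differences lay between -0.55 and 0.18 points. Called HMRs in these lists were Slc4a4 (ductal, lower in eYFP+), Flt1 and Erg (endothelial) and Vav1 (immune), the last 3 lower in eYFP- cells. They made up 1 of 43 ductal (2.33%), 2 of 42 endothelial (4.76%) and 1 of 19 immune HMRs (5.26%), against 1.23% of all linked HMRs. Only Slc4a4 had library agreement, and the only library HMR at Vav1 was in eYFP+ replicate 2, against the call. The part of other cell types in the differences was not tested beyond these values.

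Outside HMRs, the pools differed slightly and evenly. The level there was 77.0% in eYFP- and 77.7% in eYFP+ cells, a difference of 0.66 points that was above 0 on all 19 autosomes (0.53 to 0.85 points). Of 23943 windows of 100 kb with at least 500 reads in each pool, 88.1% were higher in eYFP+ cells, with a median of 0.73 points. At P60 the order was the reverse, with 77.3% and 76.6%, and eYFP+ cells lower on all 19 autosomes. Mean depth was 25.2 and 25.3 reads per CpG at P2. With 1 pool for each subtype and stage, these shifts cannot be told apart from differences between DNA samples.

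The P60 pools, from other mice, gave a measurement of the called regions that had no part in choosing them. The difference was smaller there. At the 364 regions lower in eYFP+ cells at P2, the median difference at P60 was -1.76 points, against -14.73 at P2, and 230 (63.2%, 95% Wilson interval 58.1 to 68.0) were again lower in eYFP+ cells, compared with 53.7% of all tested regions. At the 636 lower in eYFP- cells it was 1.69 points against 14.63, and 428 (67.3%, 63.6 to 70.8) were again lower in eYFP- cells, compared with 46.3% of all tested regions. In all, 658 of 1000 (65.8%) kept their sign, while 12 lower in eYFP+ and 28 lower in eYFP- cells reached 10 points in the same direction. In the opposite direction 8 and 5 regions reached 10 points. Regions with library agreement at P2 were close to the others in this share, with 63.1% against 63.2% lower in eYFP+ and 66.7% against 67.5% lower in eYFP- cells. Neighbouring regions are not independent, so these intervals are too narrow, and a smaller second value is usual for regions chosen for a large first one.

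Named regions varied in what P60 showed. Of the 10 leading regions lower in eYFP+ cells, 9 kept their sign. The region assigned to Tmem30a, in an intron of Filip1, had 57.3% in eYFP- and 42.5% in eYFP+ cells at P60, and the Nfe2l3 region had 26.4% and 21.7%. Of the 10 lower in eYFP- cells, 5 kept their sign, among them the Prkd1 intron at 2.00% and 12.99% and the Mark1 3' UTR at 22.6% and 34.0%. The Pcdh15 intron had 11.2% and 9.05% at P60, against a difference of 29.6 points at P2. Levels at the regions lower in eYFP+ cells were higher in both pools at P60, with medians of 41.6% and 39.8%, than at P2, with 32.6% and 17.4%.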

How the data were processed

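DNA methylation was measured by tagmentation-based bisulfite sequencing of sorted cells from MNYI mice (2 P2 libraries per subtype, 4 P60 libraries per subtype). Per the labels, the authors trimmed reads with Trim Galore 0.6.6 and cutadapt 1.16 and used SAMtools 1.5 and FastQC; they mapped to mm39 with abismal and used MethPipe. The authors deposited methylated and unmethylated read counts per CpG, pooled over the libraries of a subtype, other deposited columns being HMR positions. In these tables the first pool (B1) was read as eYFP- and the second as eYFP+: HMRs held by the first pool only were found in 27.5% and 24.4% of cases in the eYFP- libraries and in 6.21% and 4.77% in the eYFP+ libraries. The authors' DMR tables and scores (their own comparisons) were not used.

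Reads were summed over HMRs merged between the P2 pools with Python 3 scripts (numpy, pandas, SciPy, pysam). The pools held 506036323 and 508572413 CpG reads on autosomes. Genes came from GENCODE on GRCm39, the authors' build, in which the checked CpG positions read CG. The test was checked on simulated counts that drew reads independently. That check covers neither the dependence of reads nor the variation between mice. Region classes follow the HMR midpoint and all protein-coding transcripts, so far-off alternative starts count. Repeats were taken as 12-base words occurring more than once within a region. Named genes were the 10 largest differences per direction with library agreement and 10 reads per CpG, up to 4 called genes per list, the 5 genes with most calls per direction, b-cell markers and genes the study named. The members and lists were chosen with earlier results of these data known. Results for some genes are not reported here.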

Additional observations from a re-analysis of the deposited data

How the results depend on the processing

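The counts of called HMRs (364 lower in eYFP+, 636 lower in eYFP-) stayed within 1.5 times with at least 20 reads, no CpG minimum, centring, HMRs of at least 200 bp, CpGs over 100 reads left out or the X added, and, both chosen after seeing the data, without the imprinted loci or the repeats. They were 208 and 314 with at least 200 reads, 637 and 1102 with no minimum difference, 53 and 65 at 20 points, 88 and 237 when only HMRs of both pools were tested, and 1 and 0 with CpGs more than 300 bp apart, where fewer reads and regions enter. The median difference kept its sign in the 5 alternatives tried. Library agreement covered 253 called regions, 30 at 20 points, and 332 to 364 when a library was left out. The difference in HMRs per library (350.5 more in eYFP+) ran from -1775 (without eYFP+ replicate 1) to 2476 (without eYFP+ replicate 2), and was -597.5 without eYFP- replicate 2. With the replicate number as a block the mean was 350.5, from 1528 and -827 (exact sign-flip p = 1). The change in HMR presence from replicate 1 to replicate 2 correlated at 0.014 between the subtypes, so the numbers were not used as pairs. By their X chromosomes, libraries of the same number were also of different type. Called HMRs near starts made up 5.5%, 7.9% with 2 kb windows and 11.02% at 20 points. Called HMRs linked to genes numbered 591, 552 on canonical transcripts (chosen after seeing the data), 995 by nearest start within 1 Mb and 1150 with no minimum difference. The P60 sign share kept within its interval in both alternatives. Of the 20 leading regions, all held with unweighted CpG levels. The Ush1g difference turned to -1.32 points with CpGs more than 300 bp apart, which keeps only the first CpG of that region. Levels rest on 25.2 and 25.3 reads per CpG and on 1 pool a subtype, which limits every comparison here.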
